A study of Mus musculus with 4 samples.

Results

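The enzymes that carry squalene epoxide through lanosterol to cholesterol were followed in mouse peritoneal macrophages given a fatty acid. The genes were set by name, in pathway order, as Lss, Cyp51, Tm7sf2, Msmo1, Nsdhl, Hsd17b7, Ebp, Sc5d and Dhcr7, which is 9 of the 19938 genes measured. The cells came from wild-type C57BL/6 mice of 8 to 12 weeks, 3 days after an intraperitoneal injection of 1 mL of 4% thioglycolic acid, and were kept if they adhered to the plate. They were incubated for 6 h with 500 µM palmitic acid (16 carbons, 0 double bonds), 500 µM oleic acid (18 carbons, 1 double bond) or 500 µM linoleic acid (18 carbons, 2 double bonds), each complexed with bovine serum albumin (BSA), or as a control. The control is labelled as BSA only, while the protocol describes its vehicle as ethanol with KOH. RNA of 3 samples was pooled for the 1 array of each group, and the labels do not say whether these were separate mice. Every difference below is therefore one between 2 arrays, with no spread between samples, no interval and no test.

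Cells make cholesterol in the endoplasmic reticulum in a long chain of steps, of which the late ones begin when lanosterol synthase closes squalene epoxide into the first sterol. Methyl groups are then cut off, double bonds are moved or reduced, and the product is cholesterol. Genes of the pathway are classical targets of SREBP2, a membrane-bound transcription factor that is released when sterols in that membrane are low and is held back by SCAP and INSIG proteins when they are high. Macrophages also take up cholesterol and export it through sterol transporters.

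Promoter sequences of the enzyme genes are shown because 6 of the 9 genes were high and low in the same arrays, as the levels below show. RefSeq promoter windows of build GRCm38.p6, 250 bases before to 50 bases after an annotated start, were found for all 9 genes, with 11 windows in all because Dhcr7 has 3. Printed are the windows of 4 genes that hold a searched form of the sterol response element, SREBP's binding sequence (Cyp51, Hsd17b7, Sc5d and Msmo1). Beside them stand Lss, which had the lowest oleic acid difference of the 9, and Ebp and the third Dhcr7 window as genes that differed little. The sequences run 5′ to 3′ on the gene's own strand, and capitals mark the sterol response element forms TCACNCCA and TCACNTCA and the CCAAT box, the binding sequence of the factor NF-Y, which reads ATTGG where it lies on the other strand.
Cyp51, chr5:4104648-4104947, minus strand: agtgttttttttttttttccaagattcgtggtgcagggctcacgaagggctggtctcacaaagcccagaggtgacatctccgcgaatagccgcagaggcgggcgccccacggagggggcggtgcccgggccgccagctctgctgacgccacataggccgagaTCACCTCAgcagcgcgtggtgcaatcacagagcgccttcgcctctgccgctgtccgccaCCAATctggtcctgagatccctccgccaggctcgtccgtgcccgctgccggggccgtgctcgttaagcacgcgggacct
Hsd17b7, chr1:169969156-169969455, minus strand: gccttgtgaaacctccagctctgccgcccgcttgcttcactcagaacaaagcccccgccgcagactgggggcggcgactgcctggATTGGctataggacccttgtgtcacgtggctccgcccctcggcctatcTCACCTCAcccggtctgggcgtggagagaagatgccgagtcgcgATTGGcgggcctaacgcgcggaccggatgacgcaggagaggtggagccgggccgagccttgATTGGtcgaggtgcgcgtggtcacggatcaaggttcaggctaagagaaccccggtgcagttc
Sc5d, chr9:42264251-42264550, minus strand: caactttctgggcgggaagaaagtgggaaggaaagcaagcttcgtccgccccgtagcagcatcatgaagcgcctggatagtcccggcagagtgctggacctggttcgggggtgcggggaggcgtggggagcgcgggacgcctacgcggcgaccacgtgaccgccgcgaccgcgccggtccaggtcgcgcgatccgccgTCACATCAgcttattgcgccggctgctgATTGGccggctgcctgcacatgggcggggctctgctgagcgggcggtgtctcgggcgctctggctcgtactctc
Msmo1, chr8:64733529-64733828, minus strand: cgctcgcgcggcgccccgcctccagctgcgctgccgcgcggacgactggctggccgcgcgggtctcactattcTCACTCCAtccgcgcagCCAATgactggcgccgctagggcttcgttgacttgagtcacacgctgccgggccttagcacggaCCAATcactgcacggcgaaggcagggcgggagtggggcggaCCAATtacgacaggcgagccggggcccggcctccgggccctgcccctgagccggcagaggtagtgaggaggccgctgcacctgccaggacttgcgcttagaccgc
Lss, chr10:76531355-76531654, plus strand: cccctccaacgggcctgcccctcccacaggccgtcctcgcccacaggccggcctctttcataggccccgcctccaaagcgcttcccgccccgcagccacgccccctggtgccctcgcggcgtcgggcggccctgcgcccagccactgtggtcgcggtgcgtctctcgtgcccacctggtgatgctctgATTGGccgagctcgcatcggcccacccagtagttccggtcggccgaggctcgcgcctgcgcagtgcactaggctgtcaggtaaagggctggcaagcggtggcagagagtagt
Ebp, chrX:8193463-8193762, minus strand: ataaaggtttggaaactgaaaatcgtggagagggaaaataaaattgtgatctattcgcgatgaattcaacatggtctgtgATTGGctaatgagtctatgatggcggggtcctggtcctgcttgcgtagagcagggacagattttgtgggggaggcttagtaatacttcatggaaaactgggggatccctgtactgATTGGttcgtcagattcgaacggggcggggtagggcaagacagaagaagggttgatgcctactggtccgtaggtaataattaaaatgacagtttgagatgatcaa
Dhcr7, chr7:143829964-143830263, plus strand: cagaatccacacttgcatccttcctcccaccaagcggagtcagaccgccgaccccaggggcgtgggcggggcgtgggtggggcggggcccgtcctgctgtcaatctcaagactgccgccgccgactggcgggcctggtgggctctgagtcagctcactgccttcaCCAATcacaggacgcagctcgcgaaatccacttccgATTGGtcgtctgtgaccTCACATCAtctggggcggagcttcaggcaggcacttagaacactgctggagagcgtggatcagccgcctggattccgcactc

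On both strands, TCACNTCA was found in 4 of the 9 genes, 88 bases before the start in Cyp51, 117 in Hsd17b7, 52 in Sc5d, and in Dhcr7 130 bases before the start of the second window and 32 before that of the third. These are 5 of the 11 windows, while 3.47% of all 32851 windows hold these letters. The core form TCACNCCA was found in Msmo1 alone of the 9, 177 bases before its start, which is 1 of the 11 windows beside 4.36% of all windows. The E-box form TCACNTGA, held by 4.18% of all windows, was in 0 of the 11. None of these forms was in the windows of Lss, Tm7sf2, Nsdhl or Ebp, which says only that these letters are not there. All 9 genes had a CCAAT box in at least 1 window, and 9 of the 11 windows held it, beside 37.4% of all windows. All 9 also had the Sp1 box GGGCGG, in 10 of the 11 windows, beside 35.7% of all windows. The searched letters of different motifs did not overlap in the printed windows. Sterol response element forms occurred among genes with large differences (Cyp51, Hsd17b7, Sc5d, Msmo1) and in Dhcr7, whose level differed little, so that presence of the letters did not follow the levels gene by gene.

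**Figure D1:**
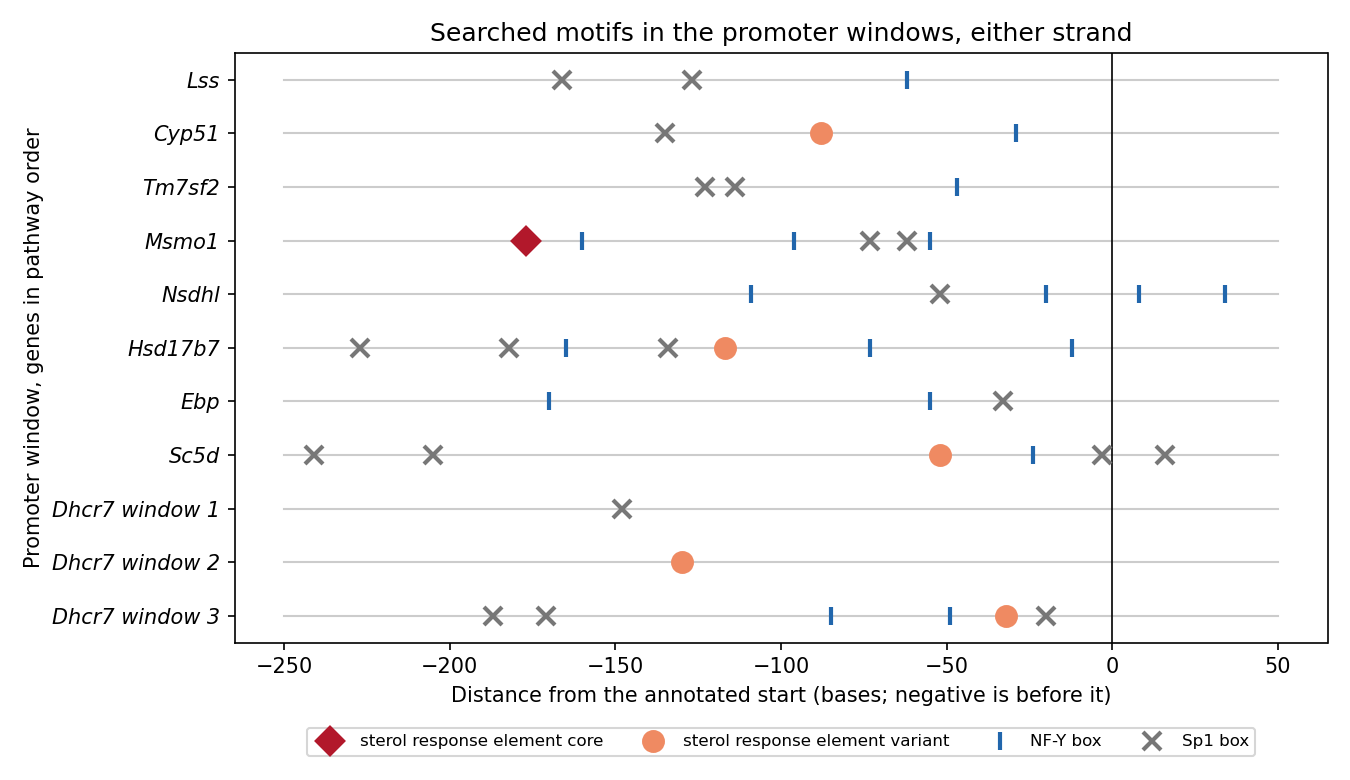
Positions of the searched motifs in the 11 promoter windows of the 9 genes, in bases from the annotated start, with the genes in pathway order from top to bottom. The NF-Y box, drawn as blue bars, is in at least 1 window of each gene, while the sterol response element forms (diamond and circles) lie in Cyp51, Msmo1, Hsd17b7, Sc5d and 2 windows of Dhcr7.

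The levels were uneven along the pathway. The genes Lss, Cyp51, Msmo1, Nsdhl, Hsd17b7 and Sc5d were low in the palmitic and oleic acid arrays and high in the linoleic acid and control arrays, with ranges of 0.84 to 1.48 over the 4 arrays on the log2 scale. Tm7sf2, Ebp and Dhcr7 had ranges of 0.13 to 0.24, beside a median range of 0.22 over all genes kept. A gene was kept if it reached log2 7.09, the middle of all values, in at least 1 array, and 11174 genes passed, among them all 9 enzymes. This grouping into 6 and 3 was made after the values were seen. In RNA from a culture, fewer cells that express a gene and less RNA per cell cannot be told apart.

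The first enzyme of the route, lanosterol synthase, is coded by Lss. Its log2 level was 9.003 with palmitic, 8.77 with oleic and 10.25 with linoleic acid, and 9.90 in the control. It was low with palmitic and oleic acid and highest with linoleic acid. The difference from the control was -0.89 with palmitic, -1.13 with oleic and 0.35 with linoleic acid. In linear terms the oleic acid level was 2.18-fold below the control, and only 2 of the 11174 genes kept lay lower in that comparison.

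Cyp51 codes for the cytochrome P450 that removes a methyl group from lanosterol, the reaction that azole drugs block in fungi. Its level was log2 9.94 with palmitic, 9.59 with oleic and 10.83 with linoleic acid, and 10.72 in the control. The palmitic and oleic acid arrays lay well below the other 2. Differences from the control were -0.78, -1.12 and 0.11 for palmitic, oleic and linoleic acid, and the oleic acid difference ranked 4 from the lowest of all genes kept.

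The double bond left by that step is reduced by the product of Tm7sf2 or by that of Lbr, the lamin B receptor, which carries the same reductase activity. Tm7sf2 had levels of log2 8.17 with palmitic, 8.38 with oleic and 8.33 with linoleic acid, and 8.41 in the control. Its differences of -0.24, -0.037 and -0.081 were all below 0, and the palmitic acid array was the lowest. Lbr lay at log2 9.65 with palmitic, 9.80 with oleic and 10.11 with linoleic acid, and at 10.03 in the control, with differences of -0.38, -0.23 and 0.075. Neither gene reached 1.5-fold in any of these 3 comparisons.

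Removal of the remaining methyl groups takes a complex of 3 enzymes, the oxidase Msmo1, the decarboxylating dehydrogenase Nsdhl and the ketoreductase Hsd17b7. Msmo1 had levels of log2 11.39 with palmitic, 11.15 with oleic and 12.01 with linoleic acid, and 12.02 in the control. Nsdhl had levels of 10.06, 9.95 and 10.79 with palmitic, oleic and linoleic acid, and 10.64 in the control. Hsd17b7 had levels of 9.99, 9.84 and 11.32 in the same order, and 10.89 in the control. All 3 were lower with palmitic and oleic acid than in both other arrays. Hsd17b7 stood out by its linoleic acid value, 0.44 above the control, which ranked 23 from the highest of all genes kept, while Msmo1 lay at -0.015 and Nsdhl at 0.14.

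The last steps are the shift of a double bond by the isomerase Ebp, the addition of another by the desaturase Sc5d and a final reduction by Dhcr7, the enzyme that is deficient in Smith-Lemli-Opitz syndrome. Ebp had levels of log2 9.87 with palmitic, 10.01 with oleic and 9.98 with linoleic acid, and 9.98 in the control. Dhcr7 had levels of 8.02, 8.15 and 8.12 with palmitic, oleic and linoleic acid, and 8.13 in the control. In both genes the 4 arrays were close and the palmitic acid array was the lowest, at a difference of -0.11 from the control. Sc5d, which acts between them, had levels of 10.93, 10.60 and 11.62 with palmitic, oleic and linoleic acid, and 11.43 in the control. It was thus the single gene of these last 3 with a large spread over the arrays, 1.01 on the log2 scale.

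**Figure D2:**
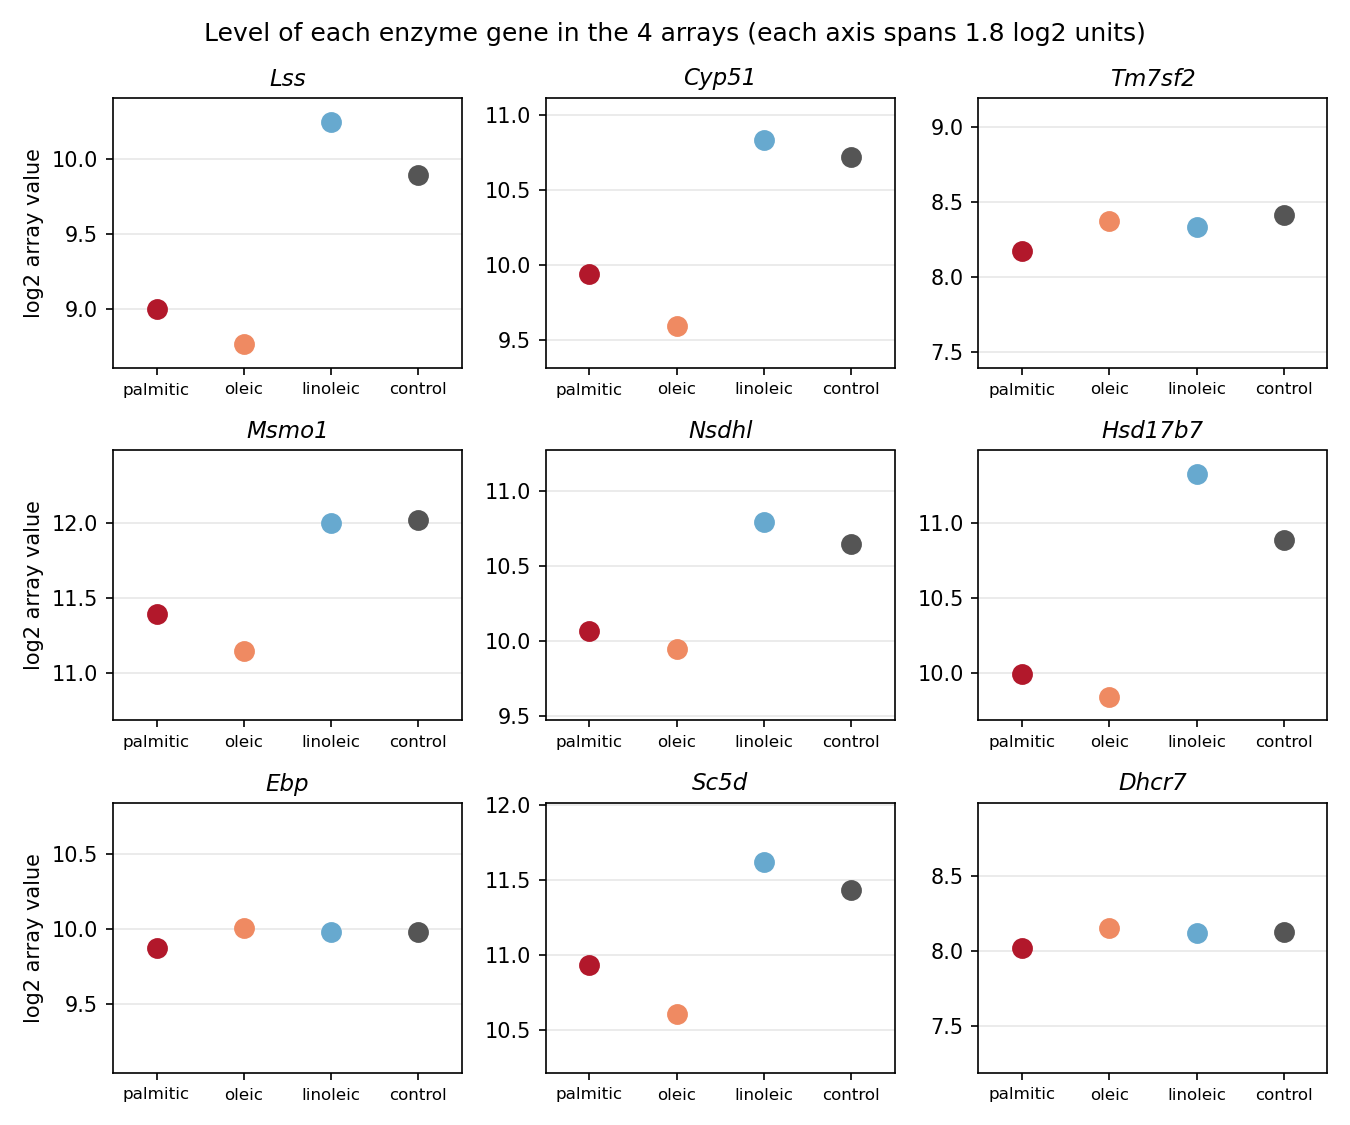
Log2 array value of each of the 9 enzyme genes (panels, in pathway order) with palmitic, oleic and linoleic acid and in the control, 1 point per array, on axes of equal span. In 6 panels the palmitic and oleic acid points lie well below the other arrays, while Tm7sf2, Ebp and Dhcr7 are nearly level, with ranges of 0.24, 0.14 and 0.13.

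The comparison of palmitic acid with the control asked how these genes differed with a saturated fatty acid. Of the 9 genes, 4 were at least 1.5-fold lower (Lss, Cyp51, Msmo1 and Hsd17b7) and 0 higher, beside 1.41% of all genes kept that were at least 1.5-fold lower and 2.17% higher. The median difference was -0.58, beside 0.00059 over all genes kept, and 9 of 9 genes lay below 0, as 49.9% of all genes did. Hsd17b7 had the lowest difference, -0.90, a 1.86-fold lower level. The line of 1.5-fold lies 0.585 from 0: Msmo1 at -0.63 just passed it, while Nsdhl at -0.58 just missed it, as did Sc5d at -0.50. The number at least 1.5-fold lower was 5 after a repeated quantile normalisation. None of the 9 genes was 2-fold lower, beside 0.295% of all genes kept.

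The same comparison for oleic acid put 6 of the 9 genes past 1.5-fold on the low side and 0 on the high side, beside 0.34% and 0.376% of all genes kept. The 38 genes so low in the whole array thus include 6 of this route. Lss, Cyp51 and Hsd17b7 (-1.05) were at least 2-fold lower, as 0.0716% of all genes were. Msmo1 followed at -0.87, Sc5d at -0.82 and Nsdhl at -0.70. Ebp (0.025) and Dhcr7 (0.023) lay slightly above the control, and the median of the 9 was -0.82, beside 0.015 over all genes kept.

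With linoleic acid, 0 of the 9 genes passed 1.5-fold in either direction, beside 0.0358% of all genes kept in each. The median difference was 0.11, beside 0.042 over all genes kept, and 5 of 9 genes lay above 0, beside 65.2% of all genes. The 4 genes below 0, Tm7sf2, Msmo1, Ebp and Dhcr7, lay between -0.081 and -0.0051. The highest after Hsd17b7 and Lss was Sc5d at 0.19.

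**Figure D3:**
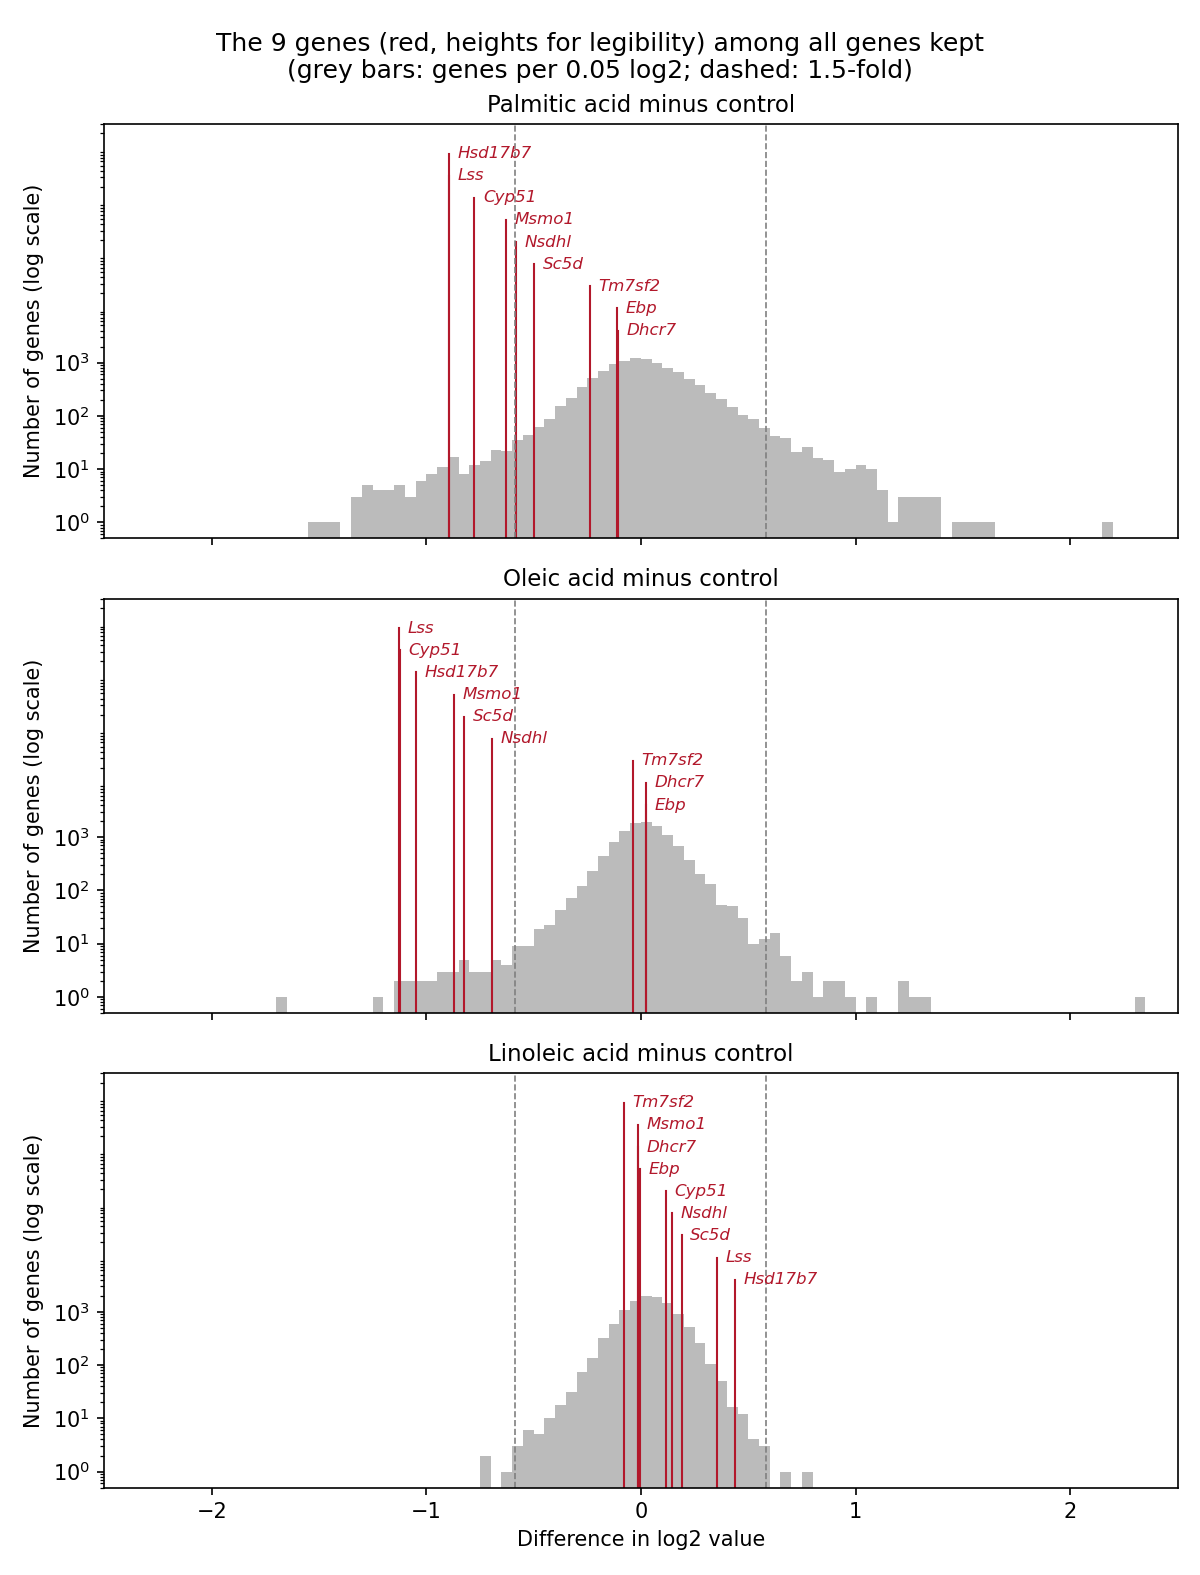
Differences in log2 value from the control for the 9 enzyme genes (red lines, whose heights only make room for the names) and for the 11174 genes kept (grey bars, genes per bin of 0.05, log scale), with the 1.5-fold lines dashed. In the oleic acid panel 6 enzyme genes lie in the sparse lower tail between -1.13 and -0.70, while Tm7sf2, Ebp and Dhcr7 lie at the centre.

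The fatty acids were given at the same concentration and time and could be set against each other, each pair as a single difference of 2 arrays. Palmitic and oleic acid, a saturated and a monounsaturated chain that also differ in length, gave 0 of 9 genes past 1.5-fold, beside 1.82% of all genes kept that were higher with palmitic acid and 1.66% lower. The 6 genes with a wide range were each higher with palmitic than with oleic acid, so 6 of 9 lay above 0, beside 45.9% of all genes, by 0.11 (Nsdhl) to 0.35 (Cyp51). Tm7sf2, Ebp and Dhcr7 were lower with palmitic than with oleic acid, by -0.20, -0.14 and -0.13. No interval of these differences can be had, and the values do not show that the 2 fatty acids act alike.

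Against linoleic acid, palmitic acid had 6 of 9 genes past 1.5-fold downward and 0 upward, beside 2.01% and 1.58% of all genes kept. The lowest were Hsd17b7 at -1.33 and Lss at -1.25, both past 2-fold, as 0.456% of all genes were. Cyp51 (-0.89), Nsdhl (-0.73), Sc5d (-0.69) and Msmo1 (-0.61) made up the 6, and Msmo1 no longer passed 1.5-fold with each array centred on its median, which left 5.

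Linoleic and oleic acid are chains of 18 carbons with 2 and 1 double bonds. Past 1.5-fold were 6 of 9 genes upward in the linoleic acid array and 0 downward, beside 0.707% and 0.34% of all genes kept. Hsd17b7 and Lss, each 1.48 higher with linoleic acid, ranked 2 and 3 from the highest of all genes kept. Cyp51 (1.24) and Sc5d (1.01) were also past 2-fold, beside 0.152% of all genes. Msmo1 was higher by 0.85 and Nsdhl by 0.84, while Tm7sf2, Dhcr7 and Ebp lay at -0.044, -0.035 and -0.030.

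**Figure D4:**
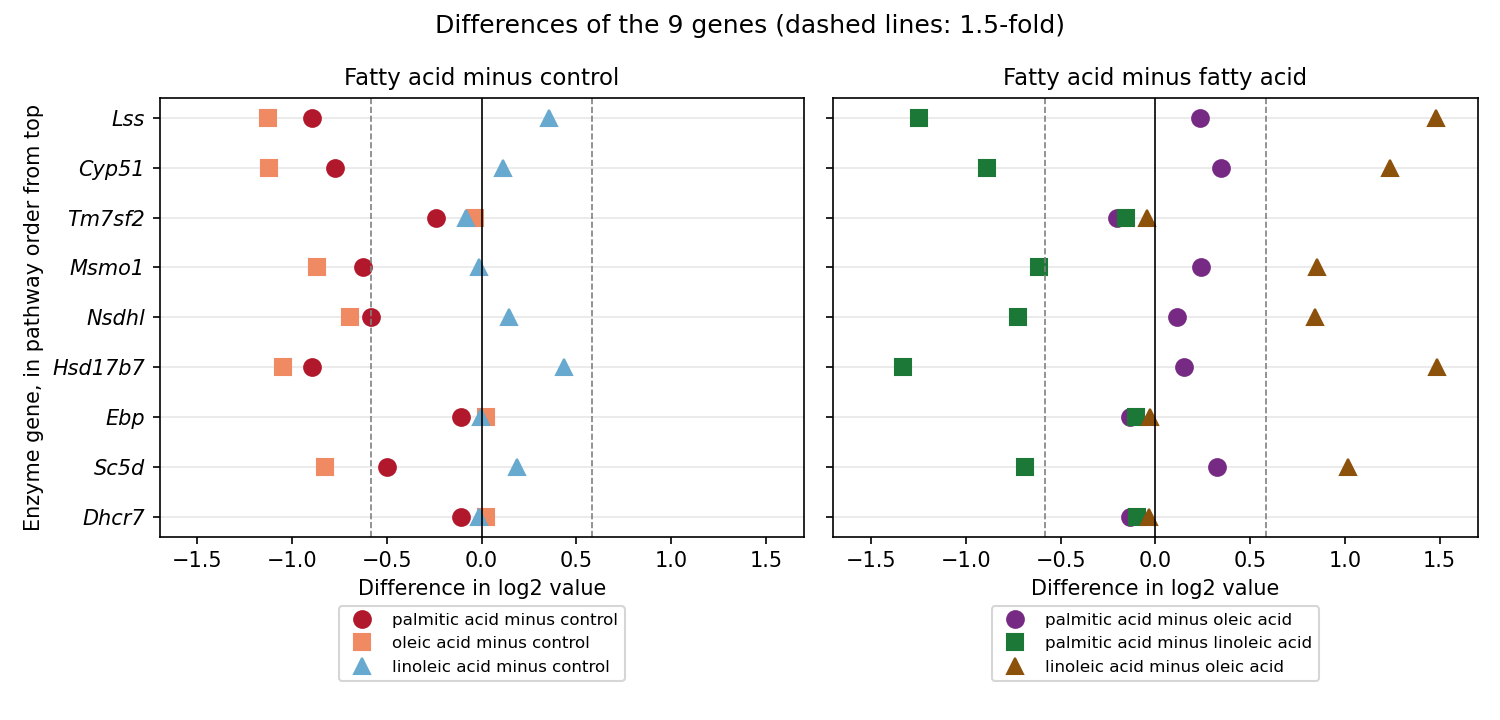
Differences in log2 value of the 9 enzyme genes, in pathway order from the top, for the 3 comparisons with the control (left) and the 3 between fatty acids (right), each symbol a difference of 2 arrays and the dashed lines 1.5-fold. Lss, Cyp51, Msmo1, Nsdhl, Hsd17b7 and Sc5d lie left of 0 with palmitic and oleic acid and right of the 1.5-fold line for linoleic minus oleic acid, and the other 3 genes stay near 0.

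The 3 comparisons with the control share its array. No array is common to the difference of palmitic and linoleic acid and that of oleic acid and the control, whose values are given here in that order. They were -1.25 and -1.13 for Lss, -0.89 and -1.12 for Cyp51, -1.33 and -1.05 for Hsd17b7, and -0.73 and -0.70 for Nsdhl. For Sc5d they were -0.69 and -0.82, and for Msmo1 -0.61 and -0.87. Both passed 1.5-fold downward for each of these 6 genes, which had been grouped by the oleic acid difference itself, and both were within 0.2 of 0 for Tm7sf2 (-0.16 and -0.037), Ebp (-0.11 and 0.025) and Dhcr7 (-0.097 and 0.023). The difference of palmitic acid and the control and that of linoleic and oleic acid also have no array in common. They pair the same arrays anew, so that they add no separate evidence. The grouping of the 6 genes used the control array, part of the first difference, and the oleic acid array, part of the second. Lss (-0.89 and 1.48), Cyp51 (-0.78 and 1.24), Hsd17b7 (-0.90 and 1.48) and Msmo1 (-0.63 and 0.85) passed 1.5-fold in both. Nsdhl (-0.58 and 0.84) and Sc5d (-0.50 and 1.01) passed it in the second alone. Tm7sf2 (-0.24 and -0.044), Ebp (-0.11 and -0.030) and Dhcr7 (-0.11 and -0.035) passed it in neither.

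Over the 4 arrays the order of levels was the same in Lss, Cyp51, Nsdhl, Hsd17b7 and Sc5d, from linoleic acid at the top through the control and palmitic acid to oleic acid. Msmo1 had the control above linoleic acid, by 0.015, and otherwise that order. Ebp and Dhcr7 shared an order of their own, oleic acid, control, linoleic acid and palmitic acid, over differences of at most 0.14. Whether neighbours in these orders differ beyond the spread between samples cannot be told with 1 array per group.

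Genes that feed or serve the route were counted from lists chosen with earlier results of these data known. Of 10 enzymes upstream of lanosterol synthase, from acetyl-CoA to squalene epoxide, 8 were measured, and the others are not analysed here. Past 1.5-fold downward were 5 of these 8 with palmitic (1.41% of all genes), 5 with oleic (0.34%) and 0 with linoleic acid (0.0358%), and their medians were -0.61, -0.85 and 0.22, close to those of the 9 late enzymes with palmitic and oleic acid. Idi1, an isomerase of the isoprenoid steps, was lowest with palmitic (-1.04) and oleic acid (-1.08), and Mvk, mevalonate kinase, was nearest to 0 (-0.43 and -0.32). None of the 8 lay within 0.3 of the control with oleic acid, whereas Tm7sf2, Ebp and Dhcr7 did. Of 7 listed genes for the electron donors and the scaffold that late enzymes use, 6 were measured. The listed donor Por is not analysed here, so the 6 do not cover all donors of the route. Of the 6, 0 passed 1.5-fold with any of the 3 fatty acids. That is near the shares of all genes kept in each direction (1.41% and 2.17% with palmitic, 0.34% and 0.376% with oleic, 0.0358% each with linoleic acid). The medians of the 6 were -0.13 with palmitic, 0.016 with oleic and 0.010 with linoleic acid. Erg28, a scaffold of the demethylation complex, lay at -0.49, -0.25 and 0.070, and Cyb5b, a cytochrome b5 of the outer mitochondrial membrane, at -0.21, -0.37 and -0.0012. Of 4 measured genes of branches that use pathway intermediates 0 passed 1.5-fold either, again near those shares.

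Of 9 measured genes of sterol control and import, 1 passed 1.5-fold downward with palmitic acid (1.41% of all genes) and 2 did with oleic acid (0.34%), with 0 upward (2.17% and 0.376%). Stard4, a sterol transfer protein, was the lowest with both (-0.59 and -0.84). Insig1, the retention factor that is itself an SREBP target, had differences of 0.17 (palmitic acid) and -0.80 (oleic acid), so that it did not follow the late enzymes with palmitic acid. Srebf2, which codes for SREBP2, lay at 0.023, -0.25 and 0.29 with palmitic, oleic and linoleic acid. Of 10 fatty acid synthesis genes that SREBP proteins also target, 3 passed 1.5-fold downward with palmitic (1.41% of all genes) and 4 with oleic acid (0.34%), led by the desaturase gene Scd2 (-1.28 and -1.69). Of 9 listed genes of sterol efflux, esterification and oxysterols, 7 were measured, and the others are not analysed here. The 7 hold no enzyme that esterifies cholesterol. Past 1.5-fold downward were 2 of the 7 with palmitic acid (1.41% of all genes) and 1 with oleic acid (0.34%). Mylip, a ligase that marks the LDL receptor for breakdown, lay at -0.98 and -0.80. Ch25h, which makes an oxysterol that restrains SREBP2, had differences of -1.02 (palmitic acid) and 0.10 (oleic acid).

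**Figure D5:**
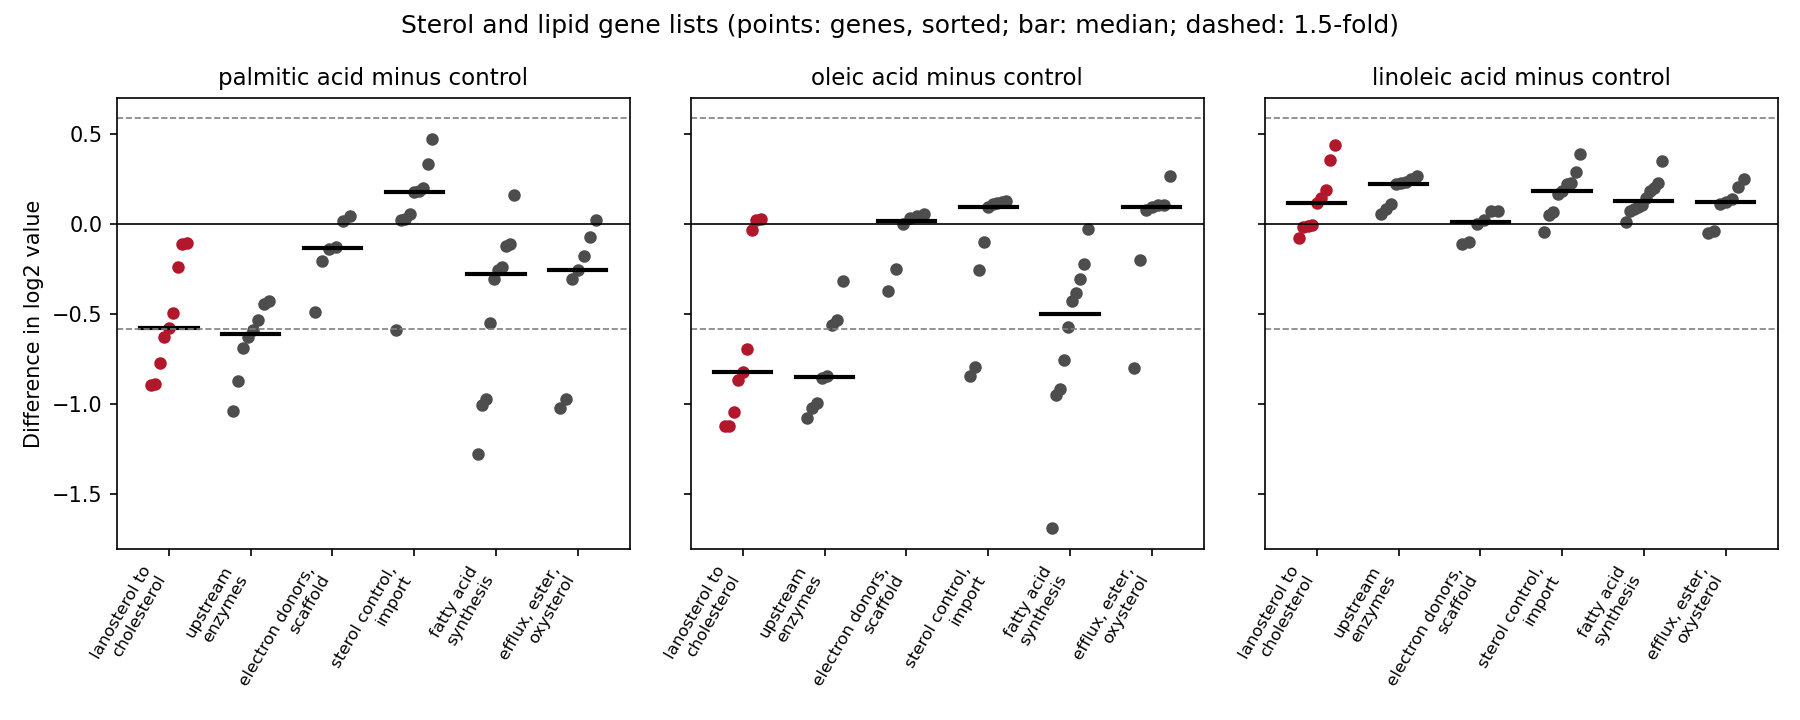
Differences in log2 value from the control for the measured genes of 6 lists (points, sorted within a list; bar, median), with palmitic, oleic and linoleic acid from left to right and the 1.5-fold lines dashed. The late enzymes (red) split with oleic acid into 6 genes at or below -0.70 and 3 near 0, while the 8 upstream enzymes all lie between -1.08 and -0.32.

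Patterns over the 4 arrays were compared with the mean of the 9 enzymes by root-mean-square distance between values centred on each gene's own mean. Predicted gene models and genes with clone-like names were left out. The 8 closest genes outside the 9 were Mki67, Nr4a3, Pcyt2, Fdps, Epha4, Tfec, Aacs and Pmvk, at distances of 0.027 to 0.059. Fdps and Pmvk are upstream enzymes of the list above, and Aacs codes for acetoacetyl-CoA synthetase. Mki67, a marker of dividing cells, had log2 levels of 10.12 with palmitic, 9.99 with oleic and 10.74 with linoleic acid, and 10.57 in the control. Among the enzymes themselves Nsdhl lay closest to the mean pattern, at 0.036, and Dhcr7 farthest, at 0.32. Msmo1 lay at 0.085, Sc5d at 0.10, Cyp51 at 0.20, Lss at 0.29, Hsd17b7 and Tm7sf2 at 0.30 and Ebp at 0.32. The mean joins genes of wide range with genes that differed little. A gene near that mean is therefore not near each enzyme.

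The arrays as a whole were close in scale, with medians of log2 7.07 to 7.13 over all probes. The authors' normalisation by quantiles makes array medians alike, so this closeness says nothing of the arrays before it. All 12 macrophage markers measured were kept in the analysis, with a mean of log2 11.94 with palmitic, 12.10 with oleic and 12.05 with linoleic acid, and 12.01 in the control. Single markers differed more than these means. Fcgr1 lay at -0.66 from the control with palmitic and 0.65 with oleic acid, and Mertk at 0.51 and 0.32. Fibroblast markers were present, with 5 of 6 kept. The mean of all 6, the dim Lum included, was 8.18 with palmitic, 8.44 with oleic and 8.56 with linoleic acid, and 8.46 in the control. The median difference of the 6 was -0.23 with palmitic acid and -0.037 with oleic acid. With palmitic acid Pdgfra was the lowest of them, at -0.86, and Lum the highest, at 0.11. With oleic acid Pdgfra lay at -0.060. The part of fibroblasts in the enzyme differences was not tested. Of the markers of mesothelial cells, neutrophils, eosinophils, B cells and T cells, 6 of 24 were kept, and of mast cells and erythroid cells 0 of 5.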

How the data were processed

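Gene expression was measured on 4 arrays, 1 for each of 4 groups, each of RNA pooled from 3 samples. Per the submitters' processing notes, the deposited log2 values were made by the authors with RMA, which corrects background, normalises arrays by quantiles and summarises probes. Its version, its level of summary and the build were not given in the sources used here, and the log2 scale was read from the values. Of 35556 probes, 21789 list exactly 1 gene in the platform annotation, and these gave 19938 genes, with probes of a gene averaged. Each of the 9 enzymes has 1 probe.

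Differences were taken between arrays for 6 pairs of groups, and genes past 1.5-fold were counted over the 11174 genes with a value at or above log2 7.09. That filter measures brightness and is no detection call. No test was run, and the number of arrays limits the precision. The counting was run on simulated data with planted differences well past the 1.5-fold line and little noise. That checks the code only and says nothing about the spread between samples here. Numbers were computed with Python 3.11.15, numpy 2.4.6 and pandas 2.3.3. The enzymes and the other lists were chosen with earlier results of these data known. Named are all 9 enzymes, genes among the 2 lowest or 2 highest differences of each list, and the 8 nearest patterns. Single cell type markers and the unanalysed Por are named as well. A planned comparison of protein sequences was not run. Alternatives were 2 scalings, 2 ways to choose probes, a floor for dim values, 2 filters and a 2-fold line.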

Additional observations from a re-analysis of the deposited data

How the results depend on the processing

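No paired analysis was possible because each group is 1 array and no result comes from a test. The differences of the 9 enzymes kept their direction wherever they passed 1.5-fold, and all 270 alternative values of single enzymes lay within 0.1 of the reported ones, the farthest by 0.070 under a repeated quantile normalisation. The medians and counts of the enzymes and the upstream list also stayed within 0.1 or 1.5 times under both scalings, both probe choices and the floor; the probe choices and the floor left the enzymes as they were, since each has 1 probe above the floor. With a 2-fold line in place of 1.5-fold, the number of enzymes lower was 0 for palmitic acid minus control, 3 for oleic acid minus control and 2 for palmitic minus linoleic acid. The number higher for linoleic minus oleic acid was 4. The share of all genes past 1.5-fold, the background of the counts, depended on the filter. It is given here only where it changed by more than 1.5 times. Without a filter it was 1.3% higher and 0.868% lower for palmitic acid minus control, 0.211% lower for oleic acid minus control, 0.1% higher for linoleic acid minus control, 1.11% higher and 1.02% lower for palmitic minus oleic acid, and 0.938% higher and 1.26% lower for palmitic minus linoleic acid. With the filter at the 75th percentile it was 3.31% higher for palmitic acid minus control, 0.543% lower for oleic acid minus control, 0.017% lower for linoleic acid minus control, 2.9% higher for palmitic minus oleic acid and 2.38% higher for palmitic minus linoleic acid. More dim genes are counted without the filter and fewer with the stricter one. With 1 array per group, no value has an error, and a difference of any size may vary between cultures.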
